A study of Mus musculus with 3 samples.

Results

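Cluster 4 of this single-cell survey of the mouse limbus and iridocorneal angle was the group named limbal epithelium, and its cells were taken by the cluster label that the authors deposited for each cell they kept. There were 1562 such cells among 26008 kept cells, with 414 in control 1, 507 in control 2 and 641 in the *Angpt1*ΔNC library. The libraries came from pools of 4 to 6 eyes of 2 to 3 mice aged 6 weeks, labelled as mixed in strain and sex, after 2 generations of crossing to albino ICR animals. The 2 control pools were *Angpt1* flox/flox and the single mutant pool was *Angpt1* flox/flox;Wnt1Cre+, so every mouse carried the floxed alleles and the Cre, which is active in the neural crest, was the difference. Tissue was cut from behind the ciliary body to just in front of the limbus, with the lens, the retina and most of the iris removed, and transcripts were counted as unique molecular identifiers (UMIs) on the 10x Genomics Chromium platform.

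The limbus is the ring where the cornea meets the conjunctiva, and its basal epithelium holds the stem and early progenitor cells that renew the corneal surface. These cells are known for the keratins KRT14 and KRT15, for the transcription factor p63 and, in the outer limbus, for the hormone subunit GPHA2, whereas cells that move onto the cornea gain KRT12 and the corneal aldehyde dehydrogenase ALDH3A1. The conjunctiva on the other side carries KRT4, KRT13 and KRT19. The ocular surface epithelium derives from surface ectoderm, and the neural crest gives rise to the stroma beneath it.

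The depth of cluster 4 was similar in the 3 libraries. It held 5920317 UMIs in control 1, 6517084 in control 2 and 10069068 in *Angpt1*ΔNC, with medians of 14480.5, 12359 and 14092 UMIs a cell and 2653 to 3003 genes a cell. Mitochondrial transcripts took a median of 2.72%, 3.26% and 3.76% of the UMIs, the highest value being that of the mutant library. *Angpt1*, the targeted gene, gave 2, 1 and 0 UMIs in cluster 4, at or under a floor of 3 counts in every library, so it could not be checked in these cells. In the other kept cells its level was 0.594 and 0.548 UMIs per 10,000 in the controls and 0.00369 in *Angpt1*ΔNC.

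The sexes of the pools were less balanced than their labels. A cell was typed as male if it had a Y-linked UMI and no *Xist*, and as female if it had *Xist* and no Y-linked UMI. In cluster 4 of the controls, 320 and 372 cells typed as male and 0 as female, and *Xist* had no UMI at all. The *Angpt1*ΔNC library held 348 female-typed and 219 male-typed cells, with 19 cells carrying both signals and 55 neither. Genotype and the share of female-typed cells therefore moved together in cluster 4, and the genotype test was repeated on male-typed cells alone. Of the barcodes of cluster 4, 7 also occurred in another library, and no barcode was shared by cluster 4 cells of different libraries.

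The markers given for the cluster were high in all 3 libraries. A level here is the mean over cells of a gene's UMIs per 10,000 UMIs of the cell. *Gpha2*, the alpha subunit of a glycoprotein hormone and a label of quiescent limbal cells, had levels of 36.4, 57.6 and 28.9 in control 1, control 2 and *Angpt1*ΔNC. *Krt14*, the keratin of basal cells in stratified epithelia, had levels of 120, 126 and 110, and *Krt17*, a keratin of hair follicles and stressed epithelia, had 54.6, 44.5 and 48.0. *Wfdc18*, a small secreted protein with a whey acidic protein domain, had 9.75, 18.4 and 7.46. *Krt14* and *Krt17* were close to each other across libraries, while *Gpha2* and *Wfdc18* were highest in control 2 by a wide margin over both other libraries.

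All 4 markers were among the 10 genes with the highest ratio of the level in cluster 4 to that in all other kept cells, and no marker of the 13 other lists, from cornea and conjunctiva to stroma, vessels, immune cells and pigment cells, was among the first 20. *Wfdc18* led with a ratio of 35.9 (0.1 UMI per 10,000 added to both levels), followed by *Gpha2* at 24.2, *Lgals7*, *Krt17* at 19.5 and *Krt14* at 17.7. *Lgals7*, which encodes galectin-7, a lectin of stratified epithelia, had a level of 8.04 in cluster 4 and 0.254 elsewhere. The remaining leading genes were *BC100530*, a stefin-like protease inhibitor gene, the beta-defensin *Defb1*, the adhesion protein gene *Epcam*, the protease inhibitor *Slpi*, *Fxyd3*, *Fabp5*, *Plek2*, the siderophore-binding *Lcn2*, *Plet1*, *Sfn*, *Cdcp1*, the water and glycerol channel *Aqp3*, the laminin chain *Lama3*, the p63 gene *Trp63* and *Serpinb5*. Their ratios ran from 10.1 for *Serpinb5* to 16.7 for *BC100530*. Since the clusters were built from the expression of these same cells, the ratios describe cluster 4 and were not tested.

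Genes of other tissues were nearly absent. The summed level of 5 stroma markers was 0.368 to 0.539 per 10,000 in cluster 4, against 96.2 to 146 in all other kept cells, and that of 4 endothelium markers was at most 0.0511. Immune cell markers summed to 0.124 to 0.304 and melanocyte markers to 0.436 to 0.605, and the goblet cell genes *Muc5ac* and *Tff1* had no UMI in cluster 4. Red blood cell genes summed to 0.214, 1.46 and 0.242, so control 2 stood apart, and retinal pigment epithelium genes summed to 0.501, 0.118 and 0.0172, with the highest value in control 1. Some transcripts of the cluster were also found in stromal cells, and their source there was not tested. Among stromal cells, with median depths of 5549, 5892.5 and 6206 UMIs, 5.17%, 4.76% and 8.50% had a *Krt17* UMI, 11.7%, 7.84% and 7.13% a *Krt12* UMI, and at most 0.786% a *Wfdc18* UMI. *Gpha2* was found in 11.4%, 12.4% and 10.6% of stromal cells, at levels of 2.26, 2.38 and 0.846, several times the *Krt14* levels of 0.245 to 0.313 there, although *Krt14* was the higher of the pair in cluster 4.

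**Figure D1:**
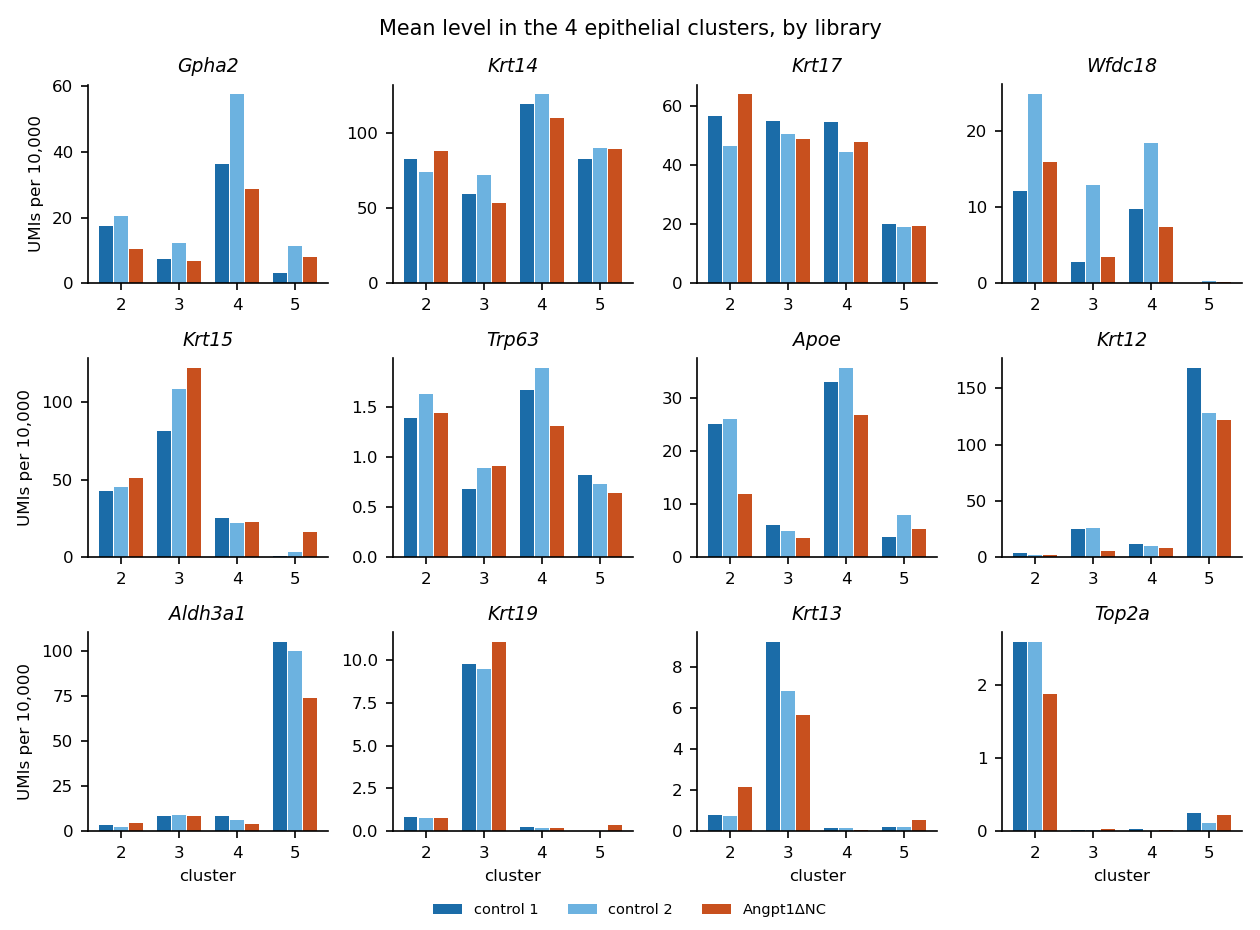
Mean level in UMIs per 10,000 (vertical axes, starting at 0) of 12 genes in the epithelial clusters 2 to 5 (horizontal axes), with 1 bar for each library. *Gpha2* is highest in cluster 4 in every library, *Krt12* and *Aldh3a1* stand high in cluster 5, *Krt15*, *Krt19* and *Krt13* in cluster 3 and *Top2a* in cluster 2.

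Cluster 4 took 4.56% of the kept cells of control 1 (exact Clopper-Pearson 95% interval 4.14 to 5.01), 4.99% of control 2 (4.57 to 5.43) and 9.47% of *Angpt1*ΔNC (8.78 to 10.2). These intervals cover counting error only, not the dissection of each pool. As a share of the 4 epithelial clusters the values were 36.2%, 44.0% and 54.7%. Corneal cells of cluster 5 numbered 575, 505 and 270 in the same libraries, conjunctival cells of cluster 3 numbered 98, 100 and 192, and the cycling limbal cells of cluster 2 numbered 56, 41 and 69. With 1 mutant library, and with levels of the defining genes *Gpha2* and *Wfdc18* that differed between libraries, the shares are given side by side and no genotype comparison was made.

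Keratins made up 2.66%, 2.48% and 2.46% of all UMIs of cluster 4. Of 53 keratin genes in the matrices, the same number, 10, reached a level of 1 per 10,000 in each library. In order of their mean level these were *Krt14*, *Krt17*, *Krt15*, *Krt5*, *Krt16*, *Krt12*, *Krt6a*, *Krt18*, *Krt8* and *Krt7*. *Krt15*, a keratin of basal progenitors, had levels of 25.4, 21.8 and 22.9, and *Krt5*, the partner of *Krt14*, had 26.4, 20.3 and 17.5, so their order depended on the library. *Krt16*, a keratin of stressed or fast-growing epithelium, had 14.7, 12.1 and 17.9, and the corneal keratin *Krt12* had 11.4, 9.89 and 8.18. The ranges of *Krt15* and *Krt5* overlapped over the libraries, as did those of *Krt8* with both *Krt18* and *Krt7*, whereas *Krt18* lay above *Krt7*, *Krt14* lay above *Krt17*, and *Krt17* above *Krt15*, in every library. Keratins of simple epithelia were low, at 1.75, 2.55 and 3.42 for *Krt18*, 1.57, 1.87 and 2.08 for *Krt8* and 1.73, 1.74 and 1.58 for *Krt7*.

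Against the corneal epithelium of cluster 5, cluster 4 had 190 genes at least 2-fold higher and 240 at least 2-fold lower in the same sense in all 3 libraries. Here, and against clusters 3 and 2 below, a gene counted only if found in at least 25% of the cells of the higher cluster. Cells of clusters 5, 3 and 2 were deeper than those of cluster 4, with medians of 18747 to 21528, 16445 to 21944 and 23002 to 26906.5 UMIs. More genes can reach that share in deeper cells, so the numbers higher and lower are not comparable. *Wfdc18* differed most, at 43.9-fold higher (ratio of the means over the 3 libraries, 0.1 added to both). Next came *Igfbp2* at 11.8-fold, with levels of 2.85, 2.72 and 3.43 in cluster 4 and 0.0967, 0.104 and 0.287 in cluster 5, and *Krt7* at 10.2-fold. Both insulin-like growth factor binding protein genes that were named, *Igfbp2* and *Igfbp3* (6.46-fold), were on the limbal side. So were *Csrp2*, a LIM domain protein gene, *Lgals7*, the small GTPase *Arl4c*, *Krt8*, the apolipoprotein gene *Apoe* and *Sftpd*, the collectin surfactant protein D. *Apoe* was abundant, with levels of 33.0, 35.7 and 26.8 in cluster 4 and 3.77, 7.99 and 5.38 in cluster 5.

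Of the genes lower in cluster 4 than in cluster 5, *Lypd2*, a Ly6 family gene, differed most. It was 146-fold lower, with levels of 0.252, 0.0686 and 0.0566 against 41.7, 34.8 and 22.3. *Slurp1*, another Ly6 family gene, was 71.4-fold lower and the water channel *Aqp5* was 68.7-fold lower. *Aldh3a1* was 14.5-fold and *Krt12* was 14.0-fold lower, yet both remained measurable in cluster 4, where *Aldh3a1* had levels of 8.65, 6.09 and 4.21. The matrix metalloproteinase genes *Mmp13* (19.4-fold) and *Mmp10* (12.4-fold), the natriuretic peptide gene *Nppb* (19.2-fold), the mitochondrial protein gene *Mgarp* (11.7-fold) and the retinol carrier *Rbp2* (10.4-fold) completed the 10 largest.

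Against the conjunctival epithelium of cluster 3, 192 genes were at least 2-fold higher and 378 at least 2-fold lower in cluster 4. The ligand gene *Wnt10a* led with 7.77-fold, at levels of 1.51, 1.69 and 0.832 in cluster 4 and 0.0838, 0.111 and 0.0631 in cluster 3. It was followed by *Apoe* (6.46-fold), the matrix protein genes *Spon2*, *Efemp1* and *Tgfbi*, the taurine transporter *Slc6a6*, *Eva1a*, *Ctnnal1*, *Igfbp7* and *Gpha2* (4.63-fold). On the conjunctival side were the keratins *Krt6b* (44.6-fold), *Krt19* (35.4-fold) and *Krt13* (34.0-fold), the barrier protease *Asprv1* (41.5-fold), *Rbp2* (34.9-fold), *Prss27*, *Hopx*, *Serpinb3a*, *Aqp5* and *Gm9573*. *Asprv1* was uneven in cluster 3 itself, at 71.0 in control 1 but 1.02 in control 2 and 5.31 in *Angpt1*ΔNC, and its ratio rests on control 1. *Krt15* did not separate the limbus from the conjunctiva, since its levels in cluster 3 were higher than in cluster 4 in all 3 libraries.

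**Figure D2:**
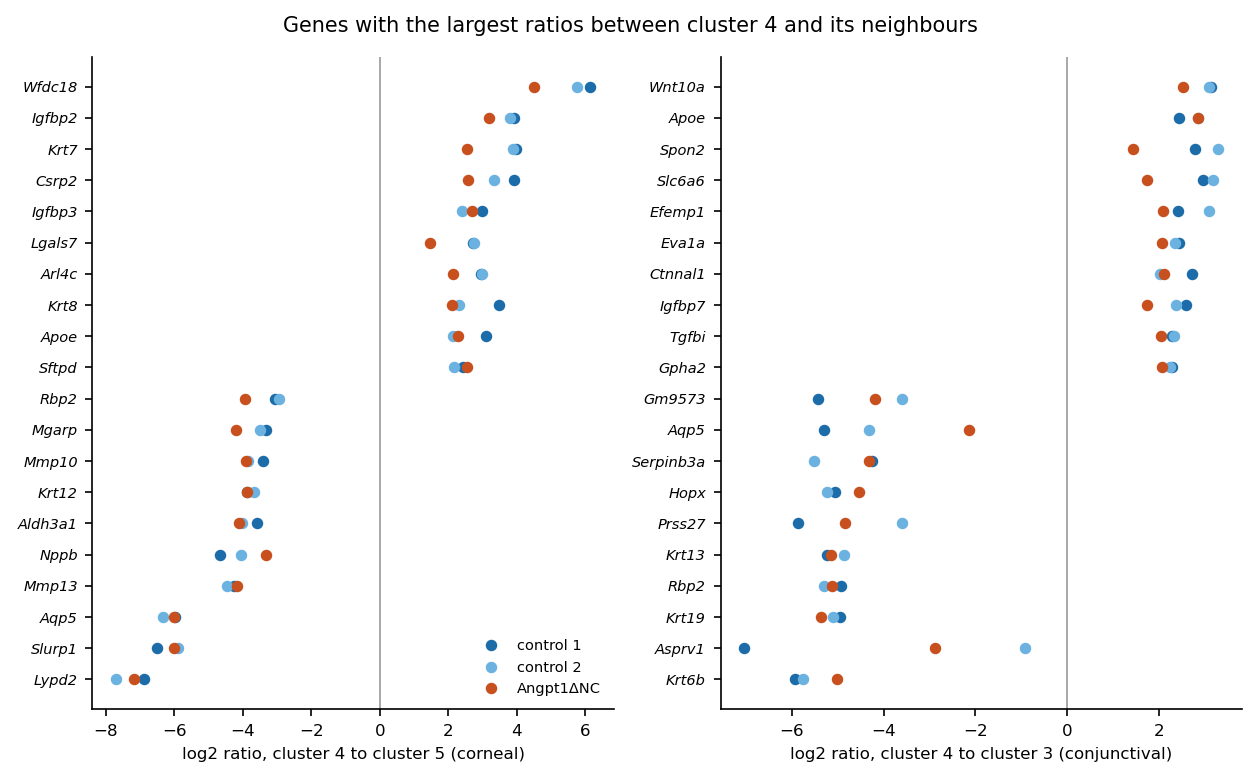
Log2 ratio of the level in cluster 4 to that in cluster 5 (left) or cluster 3 (right), horizontal axes, for the 10 genes with the largest ratios in each direction, with 1 point for each library. Genes to the right of 0 are higher in cluster 4, and the points of *Wfdc18* and *Lypd2* mark the extremes on the left, with *Asprv1* showing the widest scatter on the right.

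Against cluster 2, the cycling cells, 30 genes were at least 2-fold higher in cluster 4, fewer than against clusters 5 and 3. They were led by *Defb1* (4.66-fold), the granulocyte growth factor gene *Csf3* (4.04-fold) and *Krt12* (3.68-fold). In cluster 4, 324 genes were at least 2-fold lower, by the same rule on detection and with the deeper cells of cluster 2. The 10 with the largest ratios on the side of cluster 2 were genes of division and chromatin, among them *Ube2c* (33.9-fold), the histone gene *Hist1h1b* (22.1-fold), *Top2a* (21.3-fold), *Birc5* (18.5-fold) and *Cdk1* (13.9-fold). After each cell was thinned to 5000 UMIs, 2.05% (8 of 391), 1.19% (6 of 503) and 0.479% (3 of 626) of cluster 4 cells had a UMI of *Mki67*, *Top2a* or *Cdk1*, against 87.3%, 95.1% and 69.6% in cluster 2 and 10.9%, 8.02% and 11.0% in cluster 5. The exact intervals of these cluster 4 shares (0.887 to 3.99, 0.439 to 2.58 and 0.0989 to 1.39) overlapped each other and lay below those of cluster 5 in all 3 libraries. The clustering itself used such genes, so these shares describe cluster 4 and test nothing.

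Genes linked to the limbal progenitor state were unevenly present. *Ifitm3* and *Cd63*, which mark the outer limbus, had levels of 26.4, 27.6 and 28.3 and of 4.56, 4.94 and 4.32. Each was higher than in cluster 5, where *Cd63* reached 0.471, 0.852 and 1.28. In all other kept cells *Ifitm3* was at 31.0, 27.4 and 34.2 and *Cd63* at 19.7, 20.3 and 20.3. Summed over the progenitor genes, levels were 61.6, 60.6 and 58.7 in cluster 4 and 16.6, 15.7 and 30.9 in cluster 5. Cluster 2 had 67.4, 71.3 and 73.1 and cluster 3 had 97.4, 129 and 139, so both lay above cluster 4. *Trp63* had levels of 1.68, 1.90 and 1.32. *Sox9* was low, at 0.485, 0.550 and 0.624, and below its level in cluster 5 in all 3 libraries. The transporter genes *Abcg2* (4, 4 and 9 UMIs) and *Abcb5* (0 UMIs), both used as limbal stem cell labels, and the integrin gene *Itga9* (3, 2 and 1 UMIs) were at or near the floor. The inner limbus genes were present as well, with the metallothionein gene *Mt1* at 35.1, 38.3 and 50.3 and *Mt2* at 11.3, 14.9 and 15.9. Both were lower than in cluster 5 in every library, with *Mt1* at 48.7 to 67.4 there and *Mt2* at 14.3 to 24.4. *Atf3*, a stress-response factor, was at 1.29, 1.01 and 1.50, also under its level of 3.01 to 5.17 in cluster 5. *Socs3* was at 0.561, 0.754 and 0.298 in cluster 4 and at 0.538, 0.324 and 0.307 in cluster 5.

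The anchoring of these cells to their basement membrane was well represented, since each of the 12 genes of that list had UMIs in cluster 4 and 1 of them stayed under 0.1 per 10,000 in every library. *Col17a1*, the collagen of hemidesmosomes, had levels of 5.63, 5.41 and 4.67, the integrin gene *Itga6* had 4.16, 3.79 and 3.69 and the laminin chain gene *Lama3* had 4.84, 4.21 and 4.12. Summed over the list, levels were 29.7, 26.8 and 26.0 in cluster 4, 27.7, 25.4 and 23.8 in cluster 5, 21.1, 17.6 and 19.1 in cluster 2 and 13.7, 14.1 and 14.3 in the conjunctival cells of cluster 3. Desmosome genes summed to 27.3, 22.2 and 24.5 in cluster 4 and 25.9, 22.5 and 27.7 in cluster 2, below 47.7, 39.8 and 42.9 in cluster 5 and 46.7, 52.8 and 49.9 in cluster 3.

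Cells of cluster 4 were alike in some markers and divided in others. Thinned to 5000 UMIs, *Gpha2* was found in 385 of 391, 503 of 503 and 622 of 626 cells, and *Krt14* in 391, 502 and 626 of the same cells. *Wfdc18*, in contrast, was found in 46.5%, 58.4% and 35.1%, and *Krt12* in 52.7%, 44.9% and 35.5%, all far above the shares in stromal cells given earlier. Without thinning, *Wfdc18* was found in 52.4%, 65.7% and 43.2% of cells, and *Krt12* in 61.8%, 54.6% and 48.2%. The upper tail carried most of the signal, since the median cell of *Angpt1*ΔNC had no UMI of either gene while the 95th percentile was 42.5 UMIs per 10,000 for *Wfdc18* and 48.0 for *Krt12*.

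*Wfdc18* and *Krt12* tended to fall in different cells. Among cells with a *Wfdc18* UMI, 37.4%, 36.4% and 21.8% also had *Krt12*, against 66.0%, 56.9% and 42.9% of the cells without, and the order was the same in all 3 libraries. Cells with both made up 17.4%, 21.3% and 7.67% of the cluster, and cells with neither 18.2%, 17.9% and 37.1%. In the corneal cluster 5, 99.2% to 100% of cells had *Krt12* and 0.712%, 5.41% and 2.66% had *Wfdc18*. The cycling cells of cluster 2 had *Wfdc18* in 65.5%, 70.7% and 52.2% and *Krt12* in 29.1%, 22.0% and 27.5%. The conjunctival cells of cluster 3 had *Wfdc18* in 37.8%, 55.1% and 34.4% and *Krt12* in 51.1%, 56.1% and 29.0%. Intermediate shares of both genes were therefore not particular to the limbal cluster.

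Cells split by *Krt12* differed by 2-fold or more, in the same sense in all libraries, in 21 genes, 9 of them higher with *Krt12*. Mean levels of *Mgarp* in the thinned cells, again per 10,000 UMIs, were 6.44, 5.73 and 2.85 with *Krt12* and 1.30, 1.29 and 0.337 without, a ratio of 4.76 (mean over the libraries, 0.1 added), and *Aldh3a1* followed at 2.74. *Mmp3*, *Fn1*, *Lypd2*, *Mmp10*, *Dbx2*, *Aqp5* and *Cd74* were also higher with *Krt12*, at ratios of 2.08 to 2.37. *Aqp5* was at 0.00901 with and 0 without *Krt12* in *Angpt1*ΔNC, and *Lypd2* at 0.0885 and 0.0505 in control 2. The sense of these ratios in those libraries rests on few UMIs. On the side without *Krt12* were *Krt7* (3.20), *Atf3* (2.49), *Ttr* (2.37), *Igfbp2* (2.30), *Cyp2f2* (2.26) and *Igfbp3* (2.26). *Krt6b* (2.24), *Lgals7* (2.15), *Alox12e* (2.15) and *Calcb* (2.12) were also on that side. Of these, *Krt7*, *Igfbp2*, *Igfbp3*, *Lgals7*, *Mgarp*, *Aldh3a1*, *Lypd2*, *Mmp10* and *Aqp5* were also among the 10 genes furthest apart in either direction between clusters 4 and 5, and *Krt15* was also lower with *Krt12*, at 20.6, 18.4 and 19.4 against 31.2, 25.4 and 24.9 (a ratio of 1.39). *Krt6b* and *Atf3* went against the contrast of clusters 4 and 5, since both were higher in cluster 5 in every library. *Krt6b* was at 3.44, 2.42 and 4.77 there and at 0.259, 0.194 and 0.624 in cluster 4. The progenitor genes *Trp63*, *Cd63* and *Ifitm3* differed by ratios of 1.03 to 1.07 between cells with and without *Krt12*.

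The split by *Wfdc18*, chosen after the data had been seen, gave 31 such genes, 16 higher and 15 lower in cells with it. *Dynap* led at a ratio of 3.44, with levels of 2.19, 1.59 and 4.54 with *Wfdc18* and 0.699, 0.574 and 0.926 without. The kallikrein gene *Klk10* (2.59), the glutathione peroxidase gene *Gpx2* (2.55), *Crip1* (2.40), *Igfbp3* (2.34) and the endothelin gene *Edn2* (2.31) were also higher. Lower in these cells were *Mgarp* (3.35), *Krt12* (3.04), the complement gene *C3* (2.77), the calprotectin genes *S100a8* (2.47) and *S100a9* (2.44), *Aldh3a1* (2.38) and *Lcn2* (2.38). *Krt15* was 1.53 times as high in cells with *Wfdc18*, while *Gpha2* and *Krt14* differed by ratios of 1.08. Cells above the library's median of *Gpha2* differed from the rest by 2-fold in 4 genes, and *Krt12* differed there by a ratio of 1.08.

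**Figure D3:**
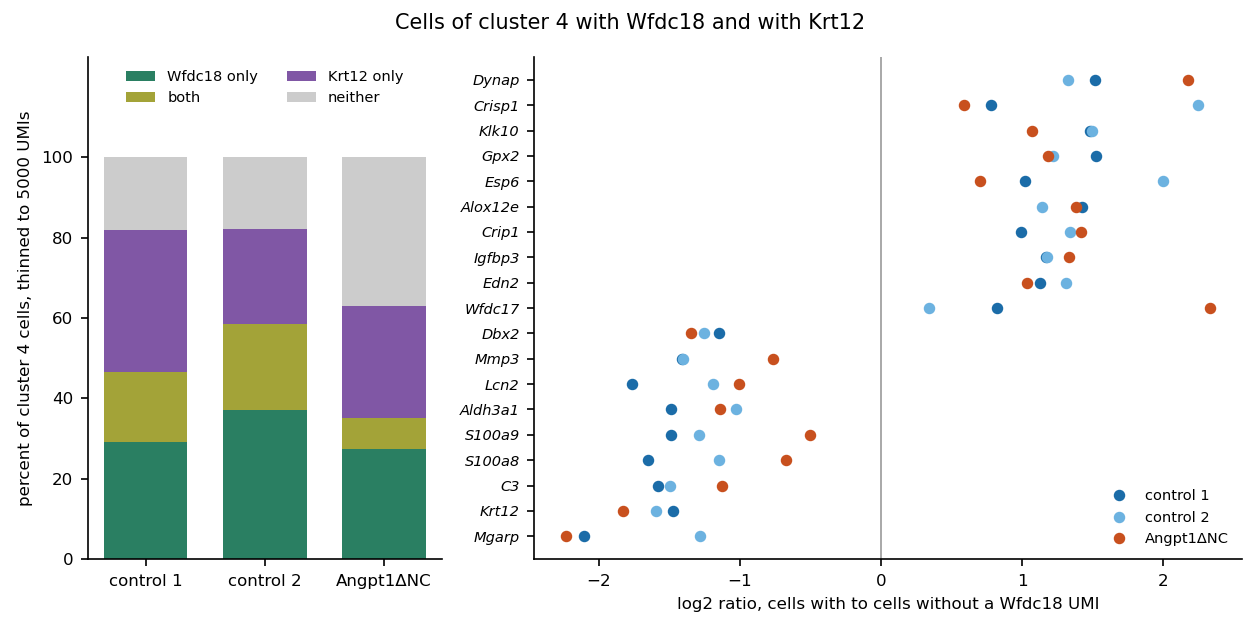
Left, percent of cluster 4 cells, thinned to 5000 UMIs, with a UMI of *Wfdc18*, *Krt12*, both or neither, stacked to 100 for each library. Right, log2 ratio (0.1 added) of the mean level in cells with to cells without *Wfdc18* for named genes, with 1 point for each library, with *Dynap* to the right of 0 and *Mgarp* and *Krt12* to the left of it in all 3.

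For the genotype comparison, UMIs of cluster 4 were summed within each library and tested with edgeR's quasi-likelihood test. Of 10521 genes tested, 651 (6.19%) were higher and 606 (5.76%) lower in *Angpt1*ΔNC at a Benjamini-Hochberg adjusted p under 0.05, in all 11.9%. DESeq2 on the same sums called 200, all of them also called by edgeR in the same direction (1.9% of genes). The mutant library lay outside both controls, on the scale of the sums, for 650 of the higher and 598 of the lower genes, and for 76.1% of all genes tested. With 1 residual degree of freedom, the spread came from the controls alone and the single mutant pool was taken to share it. The fit also gave genes of like abundance the same spread, so a gene whose controls lay far apart got no wider one. With no filter on low counts 0 genes passed, and 1692 of 16735 had an unadjusted p under 0.05. Genes are therefore described below with the adjusted p of both tools where it matters, and the differences cannot be told apart from those of the pools' sex, strain mix or dissection.

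The 12 genes with the smallest p among those at least 2-fold higher were led by *Pglyrp1*. This gene encodes a secreted protein that binds bacterial peptidoglycan. It lies at chr7:18871331-18890459 (mm10) and had levels of 0.497 and 0.243 in the controls and 3.39 in *Angpt1*ΔNC. Its log2 change was 3.37 ± 0.16 (SE), with adjusted p of 7.24e-89 in edgeR and 0.00216 in DESeq2. The mutant library lay far above both controls, and within it male-typed cells had 1.52 and female-typed cells 4.96. In cluster 5 *Pglyrp1* was at 0.668 and 0.620 in the controls and 3.07 in *Angpt1*ΔNC. The keratin genes *Krt75* (0.0744, 0.0522 and 0.338) and *Krt23* (0.130, 0.0772 and 0.389) rose by 2.62 and 2.23 on the log2 scale, and *Aldh1a3*, which makes retinoic acid, rose by 1.65 from 1.53 and 0.962 to 3.29. The peptide transporter gene *Slc15a2* (2.47), the lipase inhibitor gene *G0s2* (2.95), *4430402I18Rik* (3.00) and *Slfn2* (1.97) passed in both tools too.

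In 3 of the 12 higher genes DESeq2 did not pass, the adjusted p being 0.106 for the cytochrome P450 gene *Cyp2f2*, 0.198 for *Il1f6*, an interleukin-36 gene, and 0.796 for *Stfa1*. The levels of *Stfa1* were 0.0421, 0.186 and 0.413. *Il1f6* was at 0.259, 0.122 and 0.749, and on male-typed cells alone its change was 0.71 with an edgeR adjusted p of 0.0725. *Rpl29*, a ribosomal protein gene, had levels of 2.35, 2.32 and 9.20, a log2 change of 2.11 that was 2.08 in all other kept cells.

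Several of the 12 lower genes were predicted or poorly described genes that were low in the mutant library well beyond cluster 4. *Gm10260* (chr13:97760072-97760632, mm10) had levels of 11.3, 13.9 and 0.0218, a log2 change of -9.04 in cluster 4 and -7.82 in the other kept cells. *1600014C10Rik* (4.07, 3.46 and 0.0236), *Gm11361* (2.61, 2.22 and 0.139) and *Gm10320* (0.327, 0.390 and 0.0124) likewise fell in cluster 4, with changes of -4.76, -3.86 and -4.44 in the other cells. *BC023719* had 147 and 151 UMIs in the controls and 0 in *Angpt1*ΔNC, which makes it at least 80.4-fold lower against a floor of 3 counts in that library. *Ifi207*, an interferon-inducible gene of the Ifi200 family, was at 0.490, 0.311 and 0.00607 in cluster 4, a log2 change of -5.61. It was also lower in the corneal cells of cluster 5, at 0.768, 0.521 and 0.00667 (-6.04, edgeR adjusted p 0.00287), while the change over all kept cells outside cluster 4 was -0.19.

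*Lgals7*, one of the leading genes of the cluster, lies at chr7:28863853-28866284 (mm10) and had levels of 11.1 and 13.5 in the controls and 1.70 in *Angpt1*ΔNC. The log2 change was -2.82 ± 0.22 (SE), with adjusted p of 4.20e-34 in edgeR and 2.95e-28 in DESeq2. Within the mutant library its level was 3.72 in male-typed and 0.136 in female-typed cells, so both were below either control but by very different amounts. On male-typed cells alone the change was -1.67 with an edgeR adjusted p of 1.01e-06. *S100a8*, which with *S100a9* forms calprotectin, was at 0.650, 0.846 and 0.0613, and *Cyr61*, a matricellular gene induced by YAP, at 10.7, 11.6 and 1.72, and *Plk2* at 1.26, 1.11 and 0.186, and all 3 passed in both tools. *Ctgf*, the close relative of *Cyr61*, was at 0.588, 1.25 and 0.134 and *Ttr* at 0.416, 0.106 and 0.0136, and neither passed in DESeq2 (adjusted p 0.175 and 0.103).

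**Figure D4:**
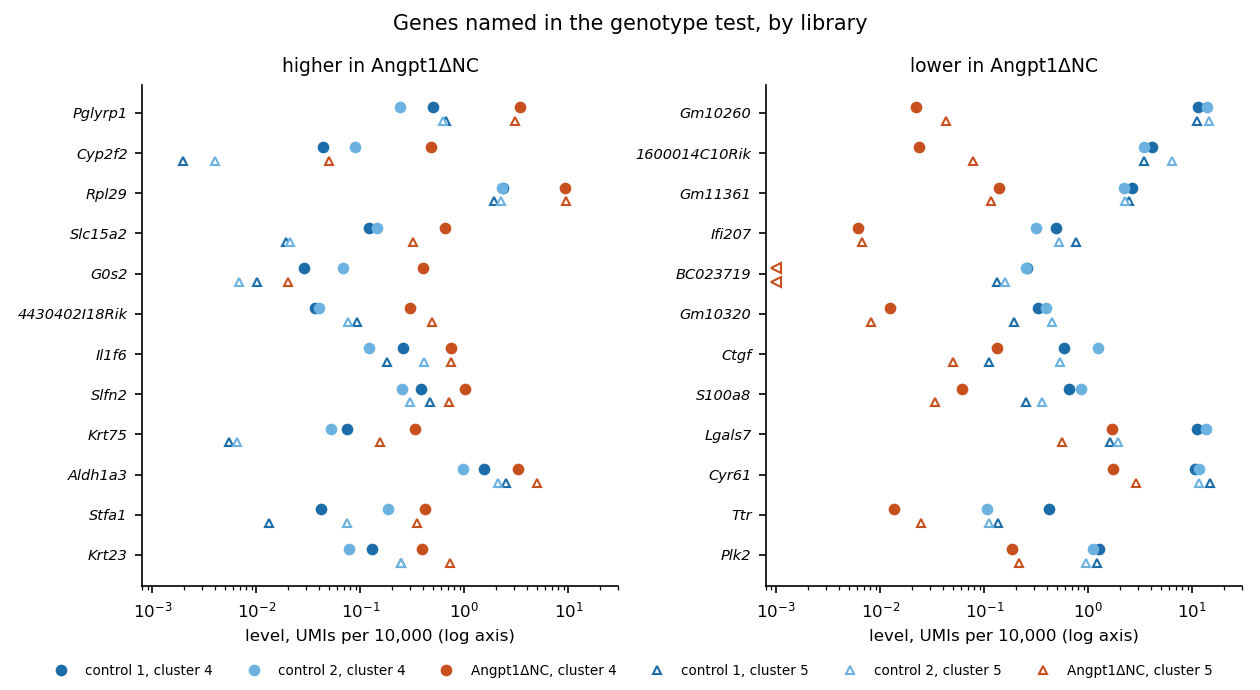
Level in UMIs per 10,000 (logarithmic horizontal axis) of the 12 higher (left) and 12 lower (right) genes of the genotype test in cluster 4 (circles) and cluster 5 (triangles), by library. The genes were chosen to have the mutant library outside both controls in cluster 4, so that position is set by the choice. Left-pointing triangles at the axis mark *BC023719*, which had 0 UMIs in the mutant cells of both clusters.

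Ligands of the EGF family, which drive growth and migration of ocular surface epithelium, were among the genes that fell. For this and the following lists, the shares over all genes tested were 6.19% higher and 5.76% lower in edgeR. Of 10 family genes tested, 3 were lower and 2 higher, and 4 of these passed in both tools (median log2 change of the list -0.14, of all genes -0.01). *Hbegf*, which encodes heparin-binding EGF-like growth factor, was at 10.5 and 9.72 in the controls and 3.30 in *Angpt1*ΔNC, a log2 change of -1.55 ± 0.20. *Areg*, for amphiregulin, was at 12.2, 8.98 and 3.93 (-1.39), and *Nrg1*, for neuregulin 1, at 2.22, 1.63 and 0.785 (-1.02). *Ereg*, for epiregulin, moved the other way, from 0.853 and 0.556 to 1.22 (0.90), as did the receptor gene *Erbb3* (0.67), which passed neither in DESeq2 nor on male-typed cells (edgeR adjusted p 0.208). The main receptor gene *Egfr* was at 1.20, 0.802 and 1.12 and did not pass. In cluster 5 *Hbegf* was at 16.5, 15.6 and 6.31 and *Areg* at 13.9, 15.3 and 5.90, and for neither did the genotype change differ between the clusters at an adjusted p under 0.05.

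Immediate early genes, which respond within minutes to growth factors and to handling of the tissue, were lower in 5 of 12 and higher in 0, with 4 passing in both tools and a list median of -0.43. *Ier3* was the most abundant, at 37.3, 32.0 and 13.5 (log2 change -1.23). *Dusp1*, a phosphatase gene that limits MAP kinases, was at 4.00, 3.15 and 1.45 (-1.13), *Nr4a1* at 0.322, 0.443 and 0.184 (-1.57) and *Jun* at 15.5, 15.1 and 8.59 (-0.68). The call of *Jun* was lost on male-typed cells alone (-0.57, edgeR adjusted p 0.0602). *Ier2* was at 2.35, 2.48 and 1.51, with DESeq2 at 0.374. *Fos*, *Fosb* and *Egr1*, at 0.902, 0.762 and 0.393 in *Angpt1*ΔNC, had mean levels between those of the controls and did not pass. *Myc*, a driver of growth, was at 1.19, 1.29 and 0.317 (-1.79), and *Cebpd*, a factor linked to quiescent limbal stem cells, at 2.97, 3.73 and 1.17 (-1.50), both passing in both tools. In the other kept cells the median of the immediate early list was -0.26, and the part of tissue handling was not tested.

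Among Wnt genes 3 of 12 were lower and 0 higher, beside 5.76% and 6.19% of all genes tested. *Wnt10a* was at 1.51, 1.69 and 0.832 (log2 change -0.92), and *Sfrp1*, a secreted Wnt inhibitor, at 4.18, 4.02 and 1.82 (-1.10), and both passed in DESeq2. *Wnt11* was at 0.222, 0.163 and 0.0599, with a DESeq2 adjusted p of 0.067. *Wnt4*, another ligand gene, was at 1.28, 1.14 and 1.01 and *Axin2*, a common Wnt target, at 0.0788, 0.0942 and 0.116, and neither passed. In the Notch list of 9, the ligand gene *Dll1* was lower (1.36, 1.25 and 0.425, a log2 change of -1.43) and the target gene *Hes1* higher (7.21, 6.55 and 10.9, 0.80), both in both tools. The receptor gene *Notch1* (0.384, 0.391 and 0.577) passed in edgeR alone, and not on male-typed cells (adjusted p 0.0624).

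Antimicrobial genes moved in both directions. Of 8 tested, 4 were higher and 2 lower, and 5 passed in both tools. *Slpi*, an inhibitor of neutrophil proteases and a leading gene of the cluster, was at 9.26, 8.50 and 18.7 (log2 change 1.24), and *Lcn2*, lipocalin 2, at 2.81, 2.34 and 5.18 (1.29). *Slpi* had a UMI in 38.9% and 33.2% of thinned control cells and 57.3% of mutant cells, and *Lcn2* in 39.4%, 32.0% and 55.0%. For *Lcn2* the change did not pass on male-typed cells alone (0.14, edgeR adjusted p 0.730), whereas that of *Slpi* did (1.46). *S100a9* was at 2.37, 1.60 and 0.538 (-1.40), in the direction of *S100a8*. *Defb1* (2.68, 3.02 and 2.48) and *Wfdc2* (6.73, 6.95 and 5.86) did not pass. *Ltf* rested on 3, 3 and 31 UMIs and got no adjusted p in DESeq2. Among 12 epithelial cytokine genes, *Tslp*, an alarm signal to the immune system, was higher (0.457, 0.331 and 1.25, 1.69) and *Cxcl1* lower (1.07, 0.951 and 0.465, -1.05) in both tools. On male-typed cells alone *Cxcl1* did not pass (-0.46, edgeR adjusted p 0.134), and within the mutant library it was at 0.764 in male-typed and 0.292 in female-typed cells. *Ccl20* passed in edgeR at 0.694, 0.155 and 0.589, although its mean level per cell lay between the controls, and it passed neither in DESeq2 (0.999) nor on male-typed cells (edgeR adjusted p 0.484).

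Of 12 adherens, tight and gap junction genes, 5 were higher in edgeR, 7 did not pass and 0 passed in DESeq2, with a list median of 0.46 in cluster 4 and 0.43 in the other kept cells. The 5 genes were *Cdh1* (E-cadherin; 1.38, 1.44 and 1.72), *Cldn1*, *Cldn7*, *Ocln* and *Gjb2*, with changes of 0.47 to 1.02. Among transcription factor genes of surface epithelium, *Foxc1*, *Grhl1* and *Grhl3* were higher and *Tfap2b* and *Tfap2c* lower in edgeR alone, and *Grhl1* did not pass on male-typed cells (adjusted p 0.210). *Pax6* (0.219, 0.282 and 0.300), *Trp63* and *Klf5* (4.48, 3.95 and 3.72) did not pass. The basement membrane genes *Col17a1*, *Itga6* and *Lama3*, with the levels given earlier, did not pass. Desmosome genes gave 2 higher (*Jup*, *Dsg2*) and 1 lower (*Dsc3*) of 10, none of them in DESeq2.

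Interferon-stimulated genes were higher in 6 of 10, namely *Isg15*, *Ifit1*, *Ifit3*, *Ifi27l2a*, *Oasl2* and *Rtp4*, with a list median of 0.82, and 0 of them passed in DESeq2, which left *Ifit3* (6, 8 and 70 UMIs) without an adjusted p. Their levels were low, for example 0.243, 0.199 and 0.353 for *Isg15*. On male-typed cells alone 5 of the 6 edgeR calls were lost, *Isg15* (log2 change 0.45) among them, with adjusted p of 0.0699 for *Ifit1*, 0.643 for *Ifi27l2a*, 0.0748 for *Oasl2* and 0.992 for *Rtp4*, and only *Ifit3* passed. Other genes induced by interferon, *Irf7* (0.157, 0.131 and 0.103) and *Bst2* (0.239, 0.0887 and 0.151), did not pass, and *Ifi207* fell as described. Of 6 MHC class I genes, *H2-D1* was lower (8.63, 7.07 and 3.50, -1.01, both tools) and *H2-T23* higher in edgeR alone, though not on male-typed cells (adjusted p 0.146). Of 8 heat shock genes *Hspa8* was lower in both tools (10.1, 10.2 and 5.05), *Dnajb1* lower and *Hspa1a* higher in edgeR alone, and the mean level of *Hspa1a*, at 0.696, 1.35 and 1.23, lay between the controls. Corneal markers were lower in 3 of 5, with *Aldh3a1* at -0.65 and *Tkt* at -0.49 in edgeR alone and *Upk1b* (0.563, 0.424 and 0.165, -1.45) in both tools. *Krt12* did not pass (-0.28), though edgeR called it lower on male-typed cells alone (-0.61). The 4 cluster markers gave 1 call, *Wfdc18*, at -0.88 with edgeR 0.000498 and DESeq2 0.999.

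**Figure D5:**
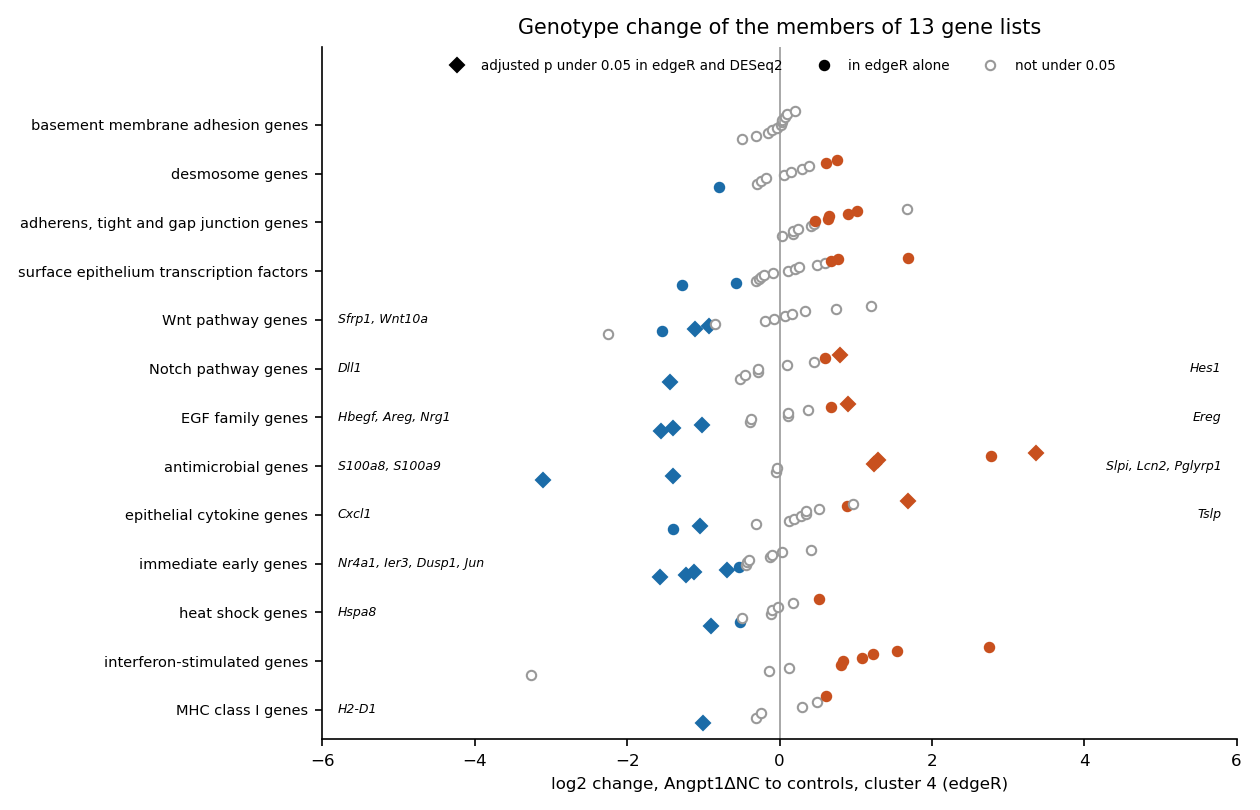
Log2 change between *Angpt1*ΔNC and controls in cluster 4 (horizontal axis) of tested members of 13 gene lists (rows), with diamonds for an adjusted p under 0.05 in edgeR and DESeq2, filled circles for edgeR alone and open circles for the rest. Genes named at either side are the diamonds, and the immediate early and Wnt genes that passed lie left of 0.

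The genotype change of cluster 4 differed from that of the corneal cells of cluster 5 for 167 of 11727 genes (1.42%) in edgeR's test of the interaction, 49 (0.418%) higher and 118 (1.01%) lower in cluster 4. DESeq2 called 18 of that term, all lower in cluster 4. The largest differences among named genes lay with keratins of the conjunctiva and limbus. *Krt19* was steady in cluster 4 (0.218, 0.179 and 0.171) but went from 0.0130 and 0.0275 to 0.385 in cluster 5, and *Krt4* likewise from 0.0118 and 0.00334 to 0.122. *Krt15* was at 25.4, 21.8 and 22.9 in cluster 4 and at 0.978, 3.13 and 16.5 in cluster 5, a difference of -3.45 that DESeq2 did not call (adjusted p 0.979). *Wfdc18* was at 9.75, 18.4 and 7.46 in cluster 4 and at 0.0399, 0.245 and 0.234 in cluster 5 (-2.07, DESeq2 9.79e-07). *Lgals7* fell in both clusters and by more in cluster 4, the difference being -1.28 (DESeq2 0.000986). In the mutant library clusters 3 and 4 also took a larger share of the cells than in the controls, as given earlier, and the part of their transcripts in the cluster 5 values was not tested.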

How the data were processed

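Single-cell libraries of 2 control pools and 1 *Angpt1*ΔNC pool were analysed. The deposited matrices hold counts of UMIs per gene and barcode, which the authors made with Cell Ranger 2.1.1 on mm10 (per the labels), although the file headers name a later release of that software. The authors then filtered cells in Seurat 3.1.3 on genes, UMIs and mitochondrial share, removed doublets with scDblFinder, integrated the libraries and clustered the cells. Their tables of kept cells gave the cluster labels, and the integrated values in them were not used. All columns of the tables were matched to a sample, with 0 left over. The cluster and the gene lists were chosen with earlier results of these data known, so no list is independent evidence.

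Counts were joined to labels by barcode with Python 3.11.15 (numpy 2.4.6, pandas 2.3.3, scipy 1.17.1). Each cell's UMIs were scaled to 10,000 and averaged over the cells of a library to give a level. Shares of cells with a UMI came from cells thinned to 5000 UMIs, leaving out shallower ones, with exact Clopper-Pearson intervals. Cluster 4 counts were summed by library and tested in R 4.3.3 with edgeR 4.0.16 (filterByExpr, TMM, quasi-likelihood, Benjamini-Hochberg adjusted p under 0.05), with DESeq2 1.42.0 as the alternative tool. An adjusted p that DESeq2 left undefined was not counted as a lost call. The interaction with cluster 5 was fitted on sums of both clusters. The fits were first run on simulated counts in which every gene had the same spread and the mutant library varied as the controls did. That setting cannot check calls that rest on a single mutant pool. Library is the replicate, and cells were never tested as replicates.

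The genes named are the 4 markers, the 20 genes found in at least 25% of cluster 4 cells with the highest ratio to other cells, and members of the lists. The 12 per direction with the smallest p among called genes at least 2-fold apart and outside both controls are named, with sex-linked genes left out. Others come from the 10 per direction against each of clusters 2, 3 and 5 and in each split. Against cluster 2 and in the splits only some of these are named, and in the *Gpha2* split none. Alternatives were other size factors, no count filter, equal cell numbers, deeper cells, male-typed cells, cells without cycling genes, each control left out, other thinning depths and other splits. A few members of the lists are not reported here.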

Additional observations from a re-analysis of the deposited data

Results flagged for a closer look

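The genotype change differed between cluster 4 and the corneal cells of cluster 5, by edgeR's test of the interaction, for 118 genes lower and 49 genes higher in cluster 4, and 30 of these, given here, are genes named for other reasons. Each value here is the log2 change in cluster 4 minus that in cluster 5, and both clusters come from the same 3 libraries. DESeq2 passed 6 of the 30, namely *Krt19* (-3.94), *Krt4* (-3.92), *Krt13* (-2.60), *Wfdc18* (-2.07), *BC100530* (-1.40) and *Lgals7* (-1.28).

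The remaining keratin was *Krt15* (-3.45). Among genes of defence and secretion, the differences were 1.26 for *Pglyrp1*, -1.54 for *Lcn2*, -1.48 for *S100a9*, -1.02 for *Defb1*, -1.22 for *Stfa1* and -1.73 for *Agr2*. Of these, only *Pglyrp1* had the higher change in cluster 4. *Lcn2* was called higher in *Angpt1*ΔNC in both clusters by edgeR, with a log2 change of 2.76 in cluster 5, where *Stfa1* (3.41) did not pass (edgeR adjusted p 0.0773). For signalling genes the genotype change, not the level, was lower in cluster 4 than in cluster 5. The differences were -1.06 for *Wnt10a*, -2.01 for *Wnt11*, -0.72 for *Sfrp1* and -1.49 for *Ereg*.

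Stress and immediate early genes split, with -0.63 for *Ier3* and -0.68 for *Dusp1* but 1.19 for *Fos*, 1.02 for *Atf3* and 1.22 for *Hspa1a*. The genotype change, not the level, was lower in cluster 4 than in cluster 5 for the growth and progenitor genes *Myc* (-0.91), *Cebpd* (-0.95), *Cd63* (-0.96) and *Birc5* (-2.05). For *Cd63* the change was 0.0092 in cluster 4 and 0.926 in cluster 5. The change was higher in cluster 4 for the transcription factor gene *Grhl3* (1.19), the tight junction gene *Cldn4* (0.49) and *Slfn2* (1.03). It was lower there for the peptide transporter gene *Slc15a2* (-1.48).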

How the results depend on the processing

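The 1257 genotype calls (651 higher, 606 lower) stayed within 1.5 times that number with other size factors (1267), equal cell numbers (851), deeper cells (1174) and male-typed cells (899). Without cells carrying *Mki67*, *Top2a* or *Cdk1* there were 823 (419 higher), by DESeq2 200 (95 higher, 105 lower), and with no count filter 0 (0 higher, 0 lower), where the prior degrees of freedom fell from infinite to 2.11 and 1692 genes had an unadjusted p under 0.05. The 167 interaction calls became 68 with other size factors (17 higher, 51 lower), 296 with no filter (126 higher) and 18 by DESeq2 (0 higher, 18 lower, with 182 at an unadjusted p under 0.05). Apart from the missing filter and the tool itself, the cause of these moves was not tested. *Hbb-bs* reversed, from -1.23 to 0.52 on male-typed cells, and ran from -2.01 to 0.60 with either control left out. Leaving out a control leaves no residual degree of freedom, so only direction could be read, and 96 of 97 called genes kept it both times. A gene whose mutant value lies outside both controls is all but bound to keep its direction. Nearly all called genes lay there, some by the rule that named them, so this count checks little. Calls were lost for 20 of 96 on male-typed cells, 21 of 97 without cycling cells, 17 of 96 with equal cell numbers, 5 of 97 in deeper cells, 1 of 97 with other size factors, 46 of 89 by DESeq2 and 97 of 97 with no filter.

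The share of cluster 4 was 36.2%, 44.0% and 54.7% of the epithelial clusters and 6.48%, 7.20% and 12.6% of cells with at least 5000 UMIs in control 1, control 2 and *Angpt1*ΔNC. The mean share of cells with *Gpha2* was 97.0% at 2000 UMIs and 98.3% with 2 UMIs required, and that with *Krt12* was 35.1% at 2000 UMIs, 54.9% without thinning and 33.9% with 2 UMIs required, against 99.3% and 44.4%. The *Krt12* split gave 21 genes, and a split at the median of *Gpha2*, chosen after seeing the data, gave 4.

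No paired analysis was possible because the mutant group has 1 library and the replicate numbers were given in accession order. The limits are the single mutant pool, the uneven sexes and the unknown relation of the pools. Every p-value here draws its spread from 2 control libraries and from no mutant replicate. In edgeR's genotype test of the limbal epithelium, genes of like abundance shared the same spread. A gene whose own controls lay far apart got no wider one there.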

Other observations

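Red blood cell and eye tissue genes in cluster 4 followed single libraries. *Hba-a1* was found mainly in control 2, where it was also the gene most uneven between cells with and without *Wfdc18* (levels of 0.0340 and 1.60), and *Ttr*, a gene of retinal pigment epithelium, was highest in control 1. In the other kept cells the summed retinal pigment epithelium markers were 8.27 in control 2, 1.33 in *Angpt1*ΔNC and highest in control 1, in the same order as in cluster 4. Angiopoietin and VEGF genes were scarce, with no UMI of the receptor gene *Tek* in cluster 4, and 4 of 12 listed genes could be tested. *Angptl4* (0.114, 0.0399 and 0.0217) and *Vegfb* (0.255, 0.173 and 0.0925) were lower in edgeR and not in DESeq2, and *Angptl4* did not pass in edgeR on male-typed cells (-1.67). *Vegfa* at 0.643, 0.422 and 0.434 did not pass.

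*Lgals7* was the only 1 of 2127 genes at a level of 0.5 or more that lay at least 4-fold apart between female-typed and male-typed cluster 4 cells of the mutant library, sex-linked genes aside. Between the controls, 3 of 2339 genes lay that far apart. In the other kept cells of the mutant library the *Lgals7* levels were 0.170 in male-typed and 0.0475 in female-typed cells.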
